A study of Mus musculus with 6 samples.

Results

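The genes described are the potassium channel genes, taken as every probe set whose platform annotation named exactly 1 gene with a symbol starting with Kcn, without Kcnk3 and Kcnk9. The rule found 164 probe sets for 83 genes, of 44935 probe sets and 18163 genes in all. It left out 3 probe sets for Kcnk3 and found 0 for Kcnk9. Of the 83 genes, 80 encode channel or auxiliary subunits, and Kcnq1ot1, Kcnmb4os1 and Kcnmb4os2 are noncoding transcripts that lie at channel genes. The arrays hold RNA of the whole adrenal from males aged 3 months, of mixed C57BL6 and 129Sv origin. All carried Per2Brdm1 together with Cry1-/-, which the labels describe as leaving the animals without a circadian clock, so both groups share the mutations and there is no wild-type control here. The mice had 2 weeks in a light-dark cycle and were then kept in constant darkness. Dissection followed lights off by 46 h in one group and by 54 h in the other. Each has 3 arrays (replicates 1, B and C), and the labels do not tie an array to an animal.

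Potassium channels let potassium leave the cell and so hold the membrane potential negative. Tandem-pore leak channels of the Kcnk family and inward rectifiers of the Kcnj family act near rest. Voltage-gated channels (Kcna, Kcnc, Kcnd, Kcnh and Kcnq) and calcium-activated channels (Kcnma and Kcnn) open when a cell depolarises or calcium rises. In the adrenal, potassium conductance keeps aldosterone-producing glomerulosa cells hyperpolarised until angiotensin or serum potassium closes or overrides it. In chromaffin cells of the medulla it shapes the action potentials that trigger catecholamine release. The question the samples allow is which of these genes are expressed in the whole gland, and whether their levels differed between 2 times 8 h apart in animals without a working clock.

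The deposited values are linear intensities in arbitrary units, hereafter units. Array medians were 204 to 217 units. The tissue label was borne out by the markers: all 8 adrenal cortex genes, all 7 glomerulosa genes and all 7 measured chromaffin genes were above background. Without detection calls, background was set from 84 probe sets for olfactory, vomeronasal and taste receptors, whose 95th percentile was 380 to 421 units depending on the array. A gene counted as above background where at least 1 of its probe sets exceeded this level on all 6 arrays. Probe sets differ in affinity, so intensities of different probe sets are not compared with each other.

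By that rule 20 of 83 potassium channel genes were above background, or 24.1%, against 47.7% of all 18163 genes. They were 5 Kcnk genes, 3 Kcnj genes, Kcnc1, Kcnc4, Kcnd3, Kcnf1, Kcnh2, Kcnh3, Kcnip1, Kcnma1, Kcnmb4, Kcnn2, Kcnq1 and Kcns3. No gene of the Kcna, Kcnab, Kcne, Kcng, Kcnt, Kcnu or Kcnv classes was among them. Kcnk1 and Kcnh3 had more than 1 probe set above background, and each of the others rested on 1. For Kcnh2, Kcnk2, Kcnn2 and some others this was their only probe set. For Kcnf1, Kcnc4 and Kcnk13 another probe set lay under the level on every array, with means of 63.3, 32.1 and 3.19 units. The remaining probe sets of Kcnip1 (means 23.5 to 256 units), Kcnd3 (27.1 to 147), Kcnj9 (40.5 to 224) and Kcnc1 (32.0 to 233) did too. So did the remaining probe set of Kcns3 (mean 208), of Kcnj11 (136) and of Kcnh3 (95.9). For Kcnma1 the next brightest probe set exceeded the level on 5 arrays and the others on none. The count depends on the level chosen. With the 99th percentile of the receptor probe sets 9 genes remained above it (Kcnf1, Kcnh2, Kcnh3, Kcnip1, Kcnj11, Kcnk1, Kcnk2, Kcnma1 and Kcnn2). With the filter used for testing, 54 genes had a probe set above the 40th percentile of all probe sets, about 139 units.

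**Figure D1:**
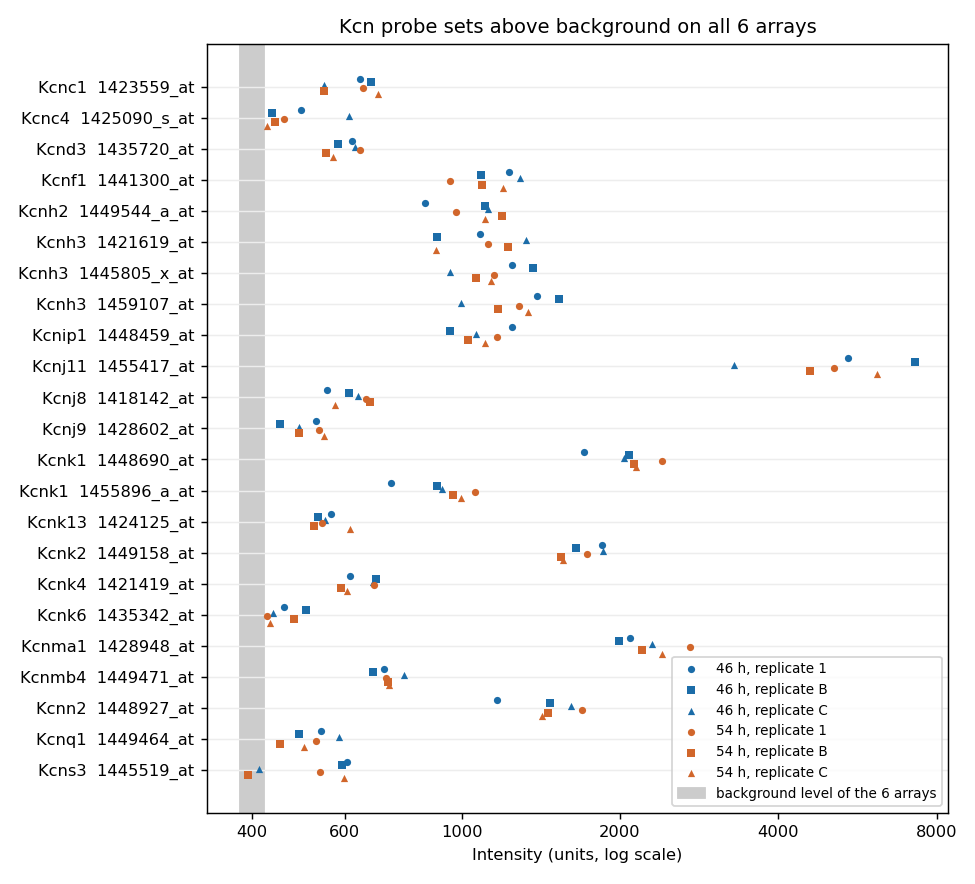
Intensity on a log axis for the 23 Kcn probe sets above background on all 6 arrays, with 1 point per array, blue for 46 h and orange for 54 h, and the range of the 6 arrays' background levels in grey. For most probe sets the colours intermix; the Kcnj11 points spread from 3295 to 7262 units, and both Kcnk1 probe sets have every 54 h point to the right of the 46 h points.

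Among leak channels, Kcnk1 read 1707, 2083 and 2038 units at 46 h and 2404, 2125 and 2143 at 54 h on its brighter probe set. Kcnk2, a channel gated by stretch and lipids and closed by cAMP signalling, read 1850, 1652 and 1858 units at 46 h and 1735, 1542 and 1561 at 54 h. The groups of Kcnk2 overlapped, since 54h replicate 1 lay above 46h replicate B. Kcnk4, Kcnk6 and Kcnk13 were above background with array values between 426 and 688 units and overlapping groups. Kcnk5, an acid-sensitive leak channel, read 230, 236 and 302 units and then 289, 329 and 291 on its brighter probe set, under the background level on every array.

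Among inward rectifiers, the pore subunit of the ATP-sensitive channel, Kcnj11, read 5412, 7262 and 3295 units at 46 h and 5112, 4588 and 6161 at 54 h. Its highest and lowest arrays were both at 46 h, so the change of 0.05 ± 0.24 SE on the log2 scale carried a wide 95% interval, from -0.48 to 0.58. The other Kcnj11 probe set read 122 to 164 units and was not tested. Kcnj8, the ATP-sensitive channel subunit known from blood vessels, read 556, 612 and 636 units and then 659, 670 and 576. Kcnj9, a G protein-gated subunit, read 529, 451 and 492 units and then 537, 492 and 549. Both Kcnj5 probe sets, for the G protein-gated channel mutated in human aldosterone-producing adenomas, lay between 43.9 and 103 units, under the filter and under the background level on all arrays.

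Of the calcium-activated channels, Kcnma1, the pore of the large-conductance channel, read 2085, 1995 and 2305 units at 46 h and 2721, 2199 and 2400 at 54 h. Its auxiliary subunit Kcnmb4 read 712, 678 and 776 units and then 720, 724 and 727, a change of 0.01 ± 0.09 SE. Kcnmb2, a subunit that lets the channel inactivate, read 261, 203 and 198 units and then 201, 182 and 177 on its brighter probe set, under the background level, and both Kcnmb1 probe sets were under the filter at 79.1 to 164 units. Kcnn2, a small-conductance channel, read 1168, 1475 and 1614 units and then 1696, 1461 and 1419, with overlapping groups.

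Voltage-gated channels above background covered several kinds of current. Kcnh2, of the ERG type, read 853, 1107 and 1123 units at 46 h and 975, 1191 and 1107 at 54 h, a change of 0.09 ± 0.13 SE. Kcnq1, a slow delayed rectifier, read 540, 492 and 584 units and then 530, 452 and 501, a change of -0.12 ± 0.11 SE. Both genes had overlapping groups. Kcnd3, an A-type channel that inactivates quickly, read 620, 582 and 628 units and then 641, 552 and 569. Its calcium-binding partner Kcnip1 read 1246, 951 and 1066 units and then 1170, 1030 and 1106. The changes were -0.06 ± 0.10 SE and 0.03 ± 0.11 SE, with overlapping groups. Fast delayed rectifiers were represented by Kcnc1 with means of 621 ± 64.3 and 630 ± 74.6 units and Kcnc4 with 515 ± 88.6 and 443 ± 16.7 (SD, n = 3 each). Kcnf1 and Kcns3 encode silent subunits that form channels only with other subunits. Kcnf1 read 1229, 1087 and 1290 units and then 949, 1092 and 1200, and the lowest array was 54h replicate 1. Kcns3 read 605, 594 and 413 units and then 539, 393 and 597, and 1 array of each time stood well under the other two. The 3 tested probe sets of Kcnh3, a channel of forebrain neurons, stood above background, with changes between -0.07 and -0.02. The brightest read 1394, 1530 and 999 units at 46 h and 1285, 1171 and 1338 at 54 h. The x_at suffix of 1 of the 3 marks probes that may also match other transcripts. Both Kcne1 probe sets, for the subunit that slows Kcnq1, were under the filter at 69.1 to 158 units.

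Between 46 h and 54 h no potassium channel gene passed the test. Of the 164 probe sets, 78 for 54 genes were above the filter, and 0 of them reached a limma adjusted p of 0.05, against 0.115% of all 26961 probe sets tested. At an unadjusted p of 0.05 in limma there were 4 (5.13%), against 10.1% of all. These were 2 higher (Kcnd2 and a Kcnk1 probe set; 4.34% of all were higher) and 2 lower (Kcna1 and Kcnj6; 5.75% of all were lower). The 46 h and 54 h arrays did not overlap for 10 of 78 (12.8%), against 15.5% of all. Of these 6 were higher at 54 h (Kcnd2, Kcnd1, Kcnip2, Kcna6 and both Kcnk1 probe sets), against 6.48% of all, and 4 lower (Kcne4, Kcnj6, Kcnn1 and Kcnc1), against 9.05%. These shares were near or under those of all probe sets and so are no result about potassium channels. The counts moved with single arrays: at an unadjusted p of 0.05 there were 13 without 46h replicate C (13.4% of all) and 7 without 46h replicate B (10.2% of all).

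The changes were small. The median log2 change of the 78 probe sets was 0.00, beside -0.02 for all probe sets tested, and their quartiles lay at -0.10 and 0.11. The 95% confidence intervals of 75 of 78 stayed within a 2-fold change and those of 62 within a 1.5-fold change. Of the 78, 2 had a change larger than 1.5-fold in size, Kcnd2 and Kcna1, or 2.56%, against 0.953% of all. With 3 arrays against 3, an exact permutation test of a single value cannot give a p under 0.1, so single genes were tested only within limma's fit over all probe sets.

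**Figure D2:**
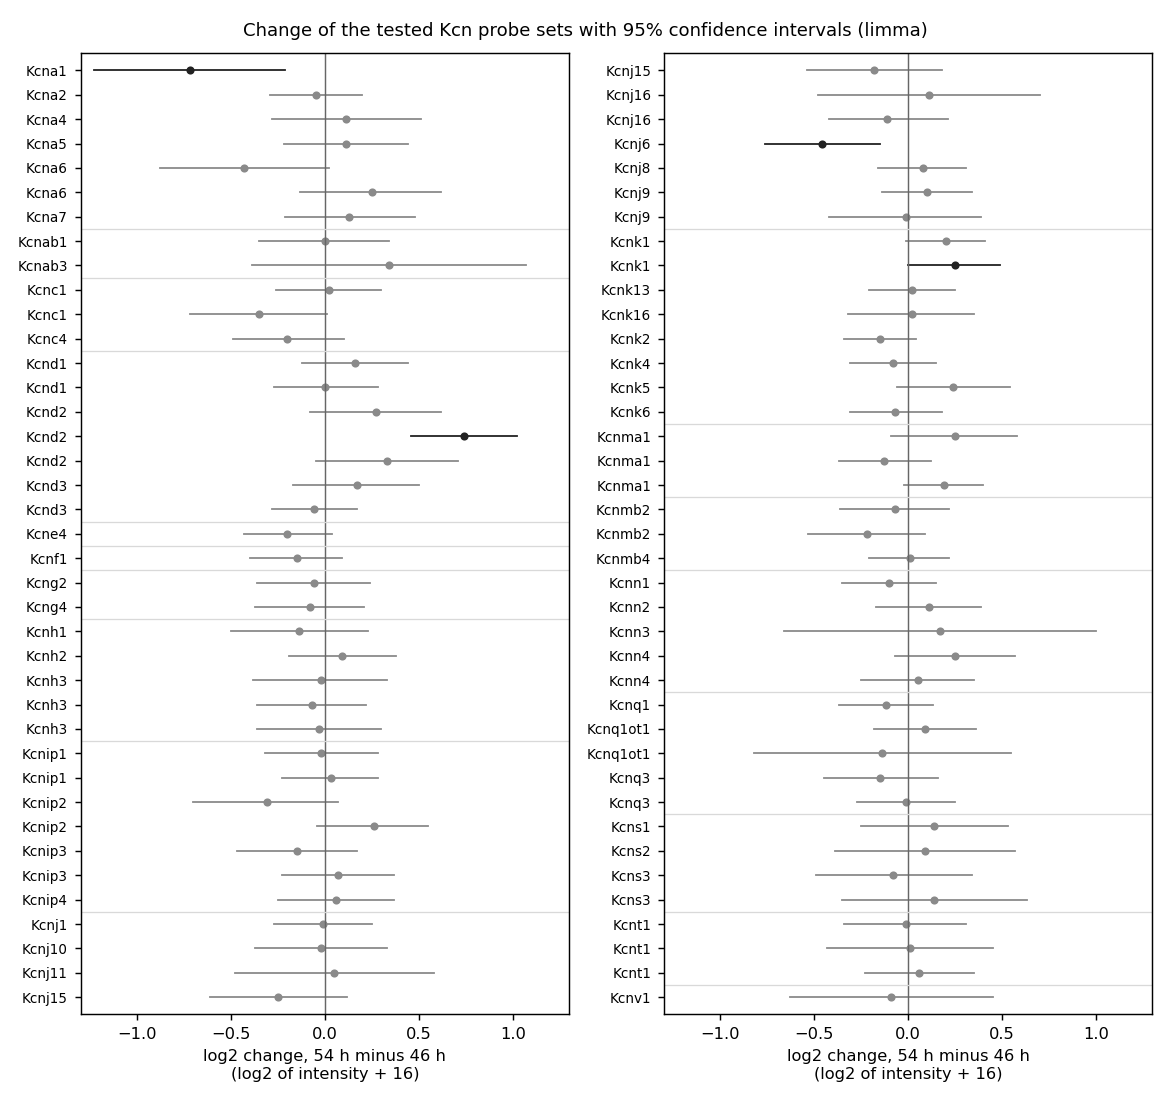
The log2 change from 46 h to 54 h with its 95% confidence interval for each of the 78 tested Kcn probe sets, 1 row per probe set, with grey lines between classes and dark symbols for the 4 with an unadjusted limma p of 0.05 or less. Nearly all intervals cross 0, and the points run from -0.72 (Kcna1) to 0.74 (Kcnd2).

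**Figure D3:**
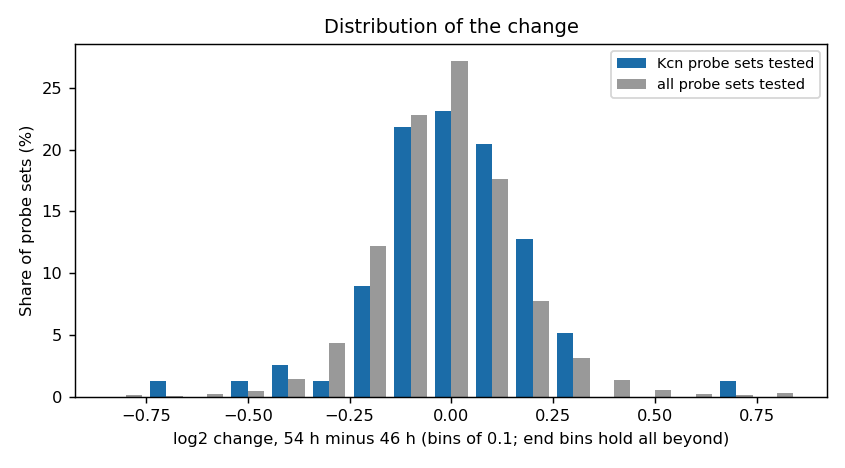
Share of probe sets in bins of the log2 change, 0.1 wide, blue for the 78 Kcn probe sets tested and grey for all 26961 probe sets tested. Both peak at the bin around 0.00, which holds 23.1% of the Kcn probe sets and 27.2% of all.

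Kcnd2, which encodes an A-type channel of neurons and heart that delays firing, had the largest log2 change and the smallest p. Its brightest probe set read 293, 309 and 354 units at 46 h and 503, 621 and 511 at 54 h. Every 46 h value was under the background level of its array and every 54 h value above it, and the groups did not overlap. Means were 319 ± 31.6 units at the earlier time and 545 ± 66.3 at the later (SD, n = 3 each). On the log2(intensity + 16) scale they differed by 0.74 ± 0.13 SE, or 1.67-fold, with a limma adjusted p of 0.0781. It was higher in 3 of 3 arrays and missed the threshold of 0.05; it was the only Kcn probe set under 0.10.

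The other tested Kcnd2 probe sets were higher on average but overlapped between the times. The next brightest read 260, 208 and 300 units and then 287, 398 and 295, a change of 0.33 ± 0.17 SE. The dimmest tested read 106, 131 and 150 units and then 172, 165 and 137, a change of 0.27 ± 0.16 SE. Without each array in turn the change of the brightest ran from 0.65 to 0.82 and its limma adjusted p from 0.0770 to 0.312. Of the subunits that assemble with Kcnd channels, Dpp6 had a log2 change of 0.22 ± 0.13 SE, and the brightest probe sets of Kcnip1, Kcnip2, Kcnip3 and Kcnip4 had 0.03 ± 0.11 SE, -0.31 ± 0.17 SE, 0.07 ± 0.13 SE and 0.06 ± 0.14 SE. None passed limma over all probe sets, and Dpp10 was under the filter. Dpp6 exceeded the background level on 1 of 6 arrays, and these probe sets of Kcnip2, Kcnip3 and Kcnip4 on none.

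Markers of other tissues differed between the times as well. Of 10 liver genes measured, 8 were tested, 2 passed limma as higher and 7 reached an unadjusted p of 0.05. None was at 0, and their summed intensity was 3877 to 6021 units at 46 h and 8376 to 12473 at 54 h. The liver mean was highest on 54h replicate B, by 1.24 above the 46 h mean on the log2 scale. The brightest Kcnd2 probe set was also highest on that array. At 46 h the orders differed. The liver deviations were 0.20, -0.37 and 0.17 on replicates 1, B and C, where that probe set read 293, 309 and 354 units. Of 7 chromaffin markers 0 passed and 2 were lower at an unadjusted p of 0.05, with sums of 65991 to 69784 and 63033 to 67940 units, and none at 0. Of 8 neuronal markers 7 were tested and 0 reached an unadjusted p of 0.05, with sums of 3454 to 4074 and 3756 to 4115 units, and none at 0. Of 3 red cell genes tested 1 passed as higher and 2 reached that level, with a median log2 change of 0.54 and sums of 1245 to 1684 and 1747 to 2199 units. Of 3 skeletal muscle genes tested 2 reached it as higher (median 0.40), with sums of 1586 to 1661 and 2024 to 2338 units. Of 6 adipose genes 3 did (median 0.33), with sums of 14909 to 19389 and 17109 to 22474 units. Of 8 macrophage and immune genes 3 reached it as lower (median -0.18), with sums of 24638 to 25695 and 22649 to 22936 units. None of these 4 lists had a marker at 0, and none of the last 3 had a gene past the adjusted test. The part of tissue composition in the values of Kcnd2 and the other channel genes, Kcnn4 included, was not tested. In whole glands fewer cells of a type and less RNA per cell cannot be told apart.

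**Figure D4:**
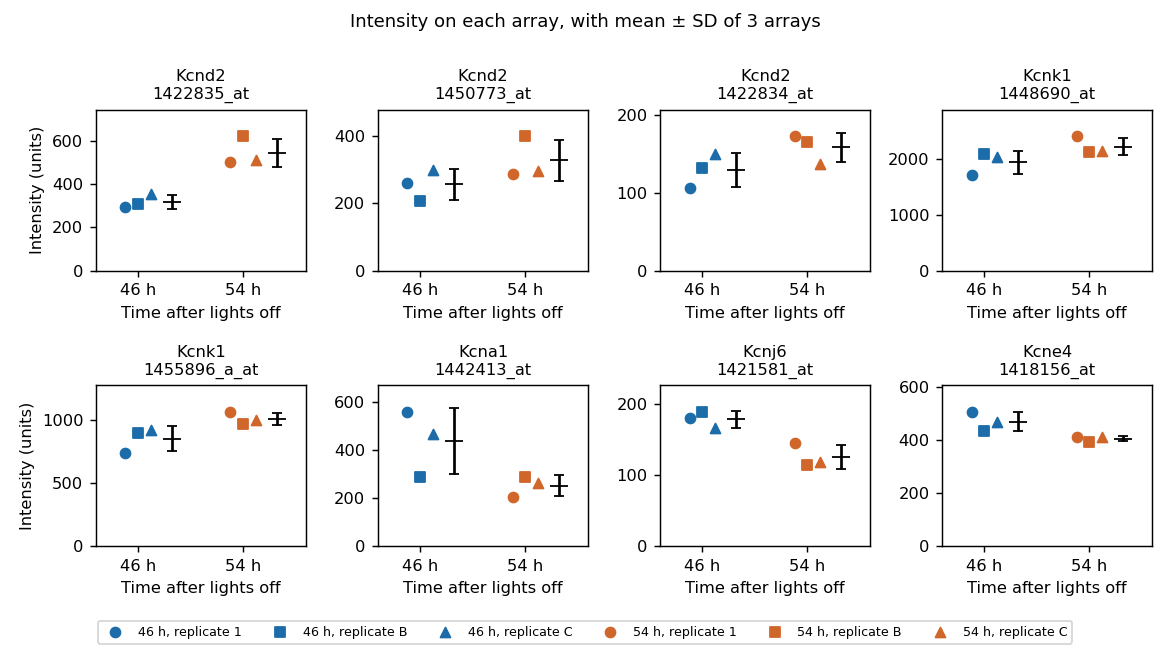
Intensity on each of the 6 arrays for 8 probe sets with small p or non-overlapping groups, with the mean and SD of the 3 arrays of each time to the right of the points and axes starting at 0. The times separate for the brightest Kcnd2 probe set, both Kcnk1 probe sets, Kcnj6 and Kcne4, and touch or overlap for the other Kcnd2 probe sets and Kcna1.

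Both Kcnk1 probe sets were higher at 54 h on every array. The dimmer read 734, 897 and 918 units and then 1059, 964 and 996, a log2 change of 0.25 ± 0.11 SE. The brighter had 0.20 ± 0.09 SE, with means of 1943 ± 206 and 2224 ± 156 units (SD, n = 3 each). The limma adjusted p was 0.489 and 0.525, and on both probe sets 46h replicate 1 was the lowest array. Without single arrays the change of the brighter ran from 0.11 to 0.25. Next among the higher genes were Kcnma1 with 0.19 ± 0.09 SE, Kcnk5 with 0.24 ± 0.13 SE, Kcnn4, a calcium-activated channel of red cells and lymphocytes, with 0.25 ± 0.14 SE, and Kcnab3, a cytoplasmic beta subunit, with 0.34 ± 0.33 SE. Kcnn4 read 284, 352 and 264 units and then 398, 310 and 368, and Kcnab3 read 167, 59.1 and 182 units and then 135, 188 and 162, with 46h replicate B far under the rest. The limma adjusted p of Kcnma1, Kcnk5, Kcnn4 and Kcnab3 lay between 0.530 and 0.774, and their groups overlapped. Kcnn4 and Kcnab3 lay under the background level on every array, and the other Kcnn4 probe set had a change of 0.05 ± 0.13 SE.

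Genes that read lower were likewise taken from their brightest tested probe set. Kcnj6, a G protein-gated inward rectifier, read 181, 189 and 166 units at 46 h and 146, 115 and 118 at 54 h. The groups did not overlap, and the log2 change was -0.46 ± 0.14 SE (limma adjusted p = 0.303). All 6 values lay under the background level, and the other 4 Kcnj6 probe sets were under the filter. Kcna1, a delayed rectifier of axons, had the largest negative change, -0.72 ± 0.23 SE (limma adjusted p = 0.333). It read 559, 287 and 467 units and then 204, 289 and 265, so 46h replicate B lay among the 54 h arrays, and the other 3 Kcna1 probe sets were under the filter. Kcna6 had -0.43 ± 0.20 SE, Kcne4, an auxiliary subunit that damps Kcnq1, -0.20 ± 0.10 SE, Kcnip2 -0.31 ± 0.17 SE and Kcnk2 -0.15 ± 0.08 SE, with limma adjusted p between 0.516 and 0.599. Kcna6 read 345, 313 and 189 units and then 181, 212 and 206, with 46h replicate C among the 54 h arrays. Kcnip2, a calcium-binding partner of Kcnd channels, read 235, 206 and 233 units and then 145, 236 and 162. Of these probe sets of Kcna6, Kcne4, Kcnip2 and Kcnk2, that of Kcne4 had groups that did not overlap. It read 507, 435 and 470 units and then 413, 395 and 413. The other tested probe sets of Kcna6 and Kcnip2 went the other way, with changes of 0.25 ± 0.17 SE and 0.26 ± 0.13 SE and groups that did not overlap. All tested Kcna6 and Kcnip2 probe sets lay under the background level on every array.

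By class, the tested probe sets went both ways. Of 7 Kcnd probe sets 6 were higher at 54 h, with a median log2 change of 0.17, and of 5 Kcnn probe sets 4 were higher, with a median of 0.11. Of 8 Kcnk probe sets 5 were higher and 3 lower (median 0.02), and of 11 Kcnj probe sets 4 were higher and 7 lower (median -0.01). Of 7 Kcna probe sets 4 were higher and 3 lower, between -0.72 and 0.25. In the Kcnh class 4 of 5 were lower (median -0.03), and in the Kcnq class, Kcnq1ot1 included, 4 of 5 (median -0.12). The 7 Kcnip probe sets lay between -0.31 and 0.26, the 3 of Kcnc between -0.35 and 0.02, the 4 of Kcns between -0.08 and 0.14 and the 3 of Kcnt between -0.01 and 0.06. In all, 39 of the 78 were higher, where 44.4% of all probe sets were. Probe sets of 1 class include several of the same gene, and no class was tested as a group.

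Probe sets of the same gene could be compared for 20 genes with 2 or more above the filter. Their changes had the same sign in 8 and different signs in 12. The extreme probe sets of a gene differed by a median of 0.21 on the log2 scale, and for 17 of 20 genes the difference was at most 2 combined standard errors. The 3 others were Kcna6, with changes of -0.43 and 0.25, Kcnip2, with -0.31 and 0.26, and Kcnd2, with 0.27 to 0.74. The combined error treats probe sets of a gene as independent, though they were read on the same arrays. The count is therefore no test of agreement. Kcnc1 had 0.02 on the probe set above background and -0.35 on the dimmer, and Kcnma1 had 0.19 on the probe set above background and 0.25 and -0.13 on the others. Closest in change were the Kcnip1 probe sets, which differed by 0.04, and those of Kcnk1 and Kcnh3, which differed by 0.05. For Kcnh3 this closeness did not hold array by array. Its brightest probe set read 1394, 1530 and 999 units and then 1285, 1171 and 1338. The dimmest tested Kcnh3 probe set had the reverse order within each time, at 1084, 898 and 1328 units and then 1125, 1223 and 894. For 29 genes some probe sets lay above the filter and others under it.

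**Figure D5:**
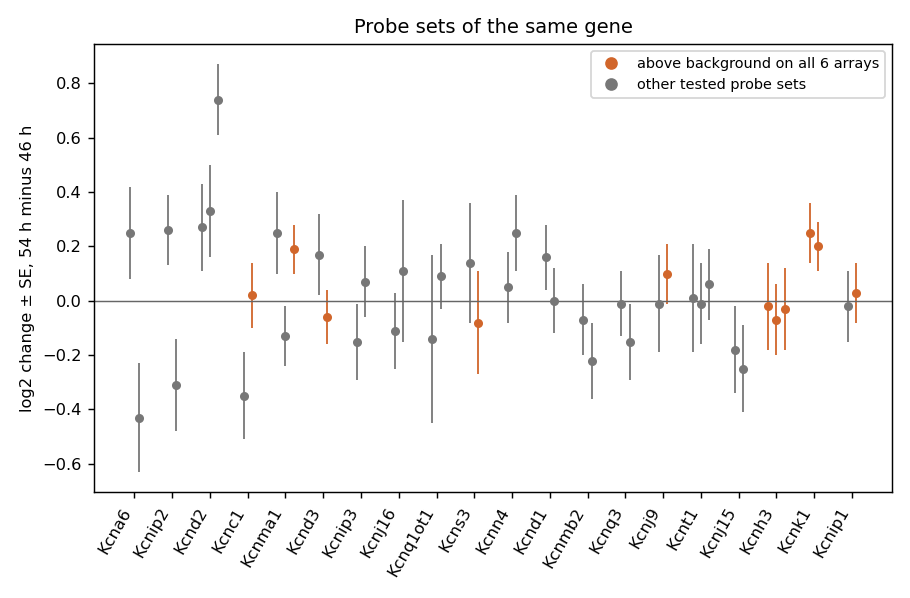
The log2 change with its SE for every tested probe set of the 20 Kcn genes with 2 or more, ordered by the difference between probe sets and within a gene from dim to bright, orange where the probe set was above background on all 6 arrays. The genes on the left, Kcna6 and Kcnip2, have probe sets on both sides of 0, whereas the changes of the Kcnk1 and Kcnh3 probe sets lie together.

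The 86 probe sets under the filter had mean intensities from 3.19 to 138 units, and 40 of them lay under the median of the receptor probe sets on every array. For 29 genes no probe set was tested, among them Kcnj2, Kcnj3, Kcnj5, Kcne1 and Kcnmb1. Fitted without a filter, 0 of the 164 passed limma, against 0.0601% of all 44935. An unadjusted p of 0.05 was reached by 8 of 164 (4.88%), against 9.02% of all, and 4 of the 8 were among these 86. The clearest was a probe set of Kcnq1ot1, the antisense RNA of the imprinted Kcnq1 domain below the filter. It read 1.76, 5.97 and 21.7 units at 46 h and 48.5, 47.3 and 116 at 54 h, with a limma adjusted p of 0.152. All values but that of 54h replicate C lay under the receptor medians, which were 65.5 to 88.7 units, so the contrast is one between dim readings. The 2 tested Kcnq1ot1 probe sets had log2 changes of 0.09 ± 0.12 SE and -0.14 ± 0.31 SE.

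Other genes of membrane excitability were read from lists, each gene from its brightest probe set above the filter. Of 12 calcium channel genes tested 0 passed limma over all probe sets, and 1 was lower at an unadjusted p of 0.05. This was Cacna1g, a T-type channel, at 372, 312 and 296 units and then 227, 232 and 206, a log2 change of -0.52 ± 0.13 SE, under the background level throughout. Cacna1h, the T-type channel known from glomerulosa cells, had -0.02 ± 0.11 SE. Of 7 sodium channel genes 0 passed and 0 reached an unadjusted p of 0.05. Of 7 genes of the sodium-potassium ATPase and its FXYD regulators 0 passed and 2 were lower at that level, Atp1b1 with -0.21 ± 0.07 SE and Fxyd6 with -0.16 ± 0.06 SE. Of 7 chloride channel genes 0 passed. Clcn7 was higher (0.21 ± 0.09 SE) at an unadjusted limma p of 0.0366. Clcn2, the channel mutated in familial hyperaldosteronism, was lower (-0.58 ± 0.20 SE) at an unadjusted limma p of 0.0156. Clcn2 read 376, 351 and 533 units and then 214, 345 and 269, and exceeded the background level on 1 array only. Of 4 partners of potassium channels 0 passed in limma and 0 reached an unadjusted p of 0.05. Abcc9, which pairs with Kcnj8, had -0.01 ± 0.11 SE. Abcc8, which pairs with Kcnj11, had -0.04 ± 0.11 SE and lay under the background level on every array.

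Since the mice carry mutations in clock repressors, promoters were searched for the canonical E-box that CLOCK and BMAL1 bind (CACGTG, the same on both strands), for the cAMP response element (TGACGTCA, the same on both strands) and for the nuclear receptor motif AGGTCA on either strand. None of the 3 motifs contains another. RefSeq promoters of build GRCm38.p6, from 250 bases before to 50 after a gene's start, were matched by symbol for 64 of the 83 genes, 89 promoters in all. The E-box was in 6 of 89 (6.74%), against 7.15% of all 32851 promoters, and named 5 genes (Kcnab1, Kcne4, Kcnj2, Kcnk5 and Kcnn4). The cAMP element was in 0 of 89, against 1.79% of all, and the nuclear receptor motif in 5 (5.62%), against 16.3%. Shown are the promoter of Kcnd2, the gene with the smallest p, which holds none of the motifs, and those of Kcne4, Kcnk5 and Kcnn4, the genes described above that hold an E-box. Capitals mark the E-box, which starts 54 bases before the start site in Kcne4, 133 bases before it in Kcnn4 and at base 27 of the transcript in Kcnk5.
Kcnd2 promoter, chr6:21215096-21215395, plus strand: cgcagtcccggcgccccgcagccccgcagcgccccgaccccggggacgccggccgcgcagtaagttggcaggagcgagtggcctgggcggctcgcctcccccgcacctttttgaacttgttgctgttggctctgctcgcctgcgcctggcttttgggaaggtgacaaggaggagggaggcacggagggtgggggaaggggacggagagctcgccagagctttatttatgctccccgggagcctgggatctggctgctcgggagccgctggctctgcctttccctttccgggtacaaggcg
Kcne4 promoter, chr1:78816661-78816960, plus strand: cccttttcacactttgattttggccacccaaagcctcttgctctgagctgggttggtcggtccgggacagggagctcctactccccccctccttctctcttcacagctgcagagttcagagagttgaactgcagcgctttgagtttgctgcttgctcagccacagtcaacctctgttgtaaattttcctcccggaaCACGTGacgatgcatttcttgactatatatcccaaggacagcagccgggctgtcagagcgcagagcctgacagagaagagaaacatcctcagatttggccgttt
Kcnk5 promoter, chr14:20181733-20182032, minus strand: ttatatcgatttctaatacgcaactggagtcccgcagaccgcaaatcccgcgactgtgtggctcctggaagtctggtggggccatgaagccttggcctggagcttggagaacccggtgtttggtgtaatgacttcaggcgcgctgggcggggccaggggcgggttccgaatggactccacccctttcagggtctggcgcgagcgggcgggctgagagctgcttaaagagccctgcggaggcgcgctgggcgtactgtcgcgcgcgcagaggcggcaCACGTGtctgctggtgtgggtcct
Kcnn4 promoter, chr7:24370013-24370312, plus strand: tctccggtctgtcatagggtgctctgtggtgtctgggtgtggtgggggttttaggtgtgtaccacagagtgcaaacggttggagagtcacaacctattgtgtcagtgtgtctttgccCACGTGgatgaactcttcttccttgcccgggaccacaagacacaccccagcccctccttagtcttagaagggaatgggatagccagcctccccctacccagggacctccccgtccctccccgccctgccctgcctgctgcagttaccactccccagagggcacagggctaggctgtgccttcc
These 3 genes with an E-box did not share a direction, at -0.20, 0.24 and 0.25 on the log2 scale, and none passed the test. A match is a description of letters in the window and not a binding site.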

How the data were processed

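Each array measured biotin-labelled total RNA of 1 sample, per the labels' protocols. The deposited table holds 1 linear intensity per probe set and array as made by the authors; the sources name no summarisation or normalization method. Of 45001 probe sets, 64 controls, 1 without values and 1 with a damaged value were left out, and 34848 of the other 44935 named exactly 1 gene through the platform's annotation. Over the filtered probe sets, medians of the 6 arrays lay within 0.0728 (log2), so no further normalization was applied. Values were transformed as log2(intensity + 16), so folds of dim probe sets are understated. Probe sets with a mean above the 40th percentile (26961) were compared in limma 3.58.1 under R 4.3.3 (lmFit and eBayes with trend = TRUE). Tests were two-sided, p-values were adjusted over all 26961 by Benjamini-Hochberg, and the threshold was 0.05. The p-values set the difference between the times against the spread between arrays of a time, moderated over all probe sets. That spread may be technical. The procedure was run on simulated data with normal noise and added changes larger than that of any potassium channel probe set above the filter. That run does not show how often changes of the sizes seen here would be found. The members, lists and comparisons were chosen with earlier results of these data known. Genes given in detail were any past the test, the 6 with the smallest p in each direction, the brightest above background of each class, 17 genes of adrenal or vascular interest, and the 5 whose probe sets differed most. For the smallest p each gene was read only from its brightest probe set above the filter. Plots used Python 3.11.15 and matplotlib 3.10.9.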

Additional observations from a re-analysis of the deposited data

How the results depend on the processing

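No potassium channel probe set passed limma at an adjusted p of 0.05 in any alternative but 1: with array weights 10 did (Kcna1, Kcna6, Kcnc1, Kcnd2, Kcnip2, Kcnj6, Kcnk1 and Kcnmb2), where 3466 of all 26961 passed, or 12.9%. At a threshold of 0.10, 1 passed (Kcnd2), and 107 of all. The count of all called, 31, was 47 with quantile normalization, 48 with a filter at the 60th percentile, 3 without an intensity trend, 61 with a robust fit, and 2 to 66 without single arrays. The 2 higher Kcn probe sets at an unadjusted p of 0.05 became 4 with quantile normalization, 1 with median centring, 5 without a filter, 10 with array weights and 1 with the replicate block; of all probe sets 4.34% were higher at first and 5.90%, 4.27%, 4.26%, 13.8% and 3.05% in these settings. The 2 lower became 1 with the 60th percentile filter and 12 with array weights, where 6.88% and 18.1% of all were lower, against 5.75%. Leaving out single arrays gave 1 to 6 higher and 2 to 7 lower. The extremes of 6 and 7 came without 46h replicate C, where 13 of 78 (16.7%) reached that level against 13.4% of all; without 46h replicate B it was 7. The median change was -0.05 with array weights and -0.03 to 0.02 without single arrays. The 10 non-overlapping probe sets became 21 of 164 without a filter (12.8%, against 14.2% of all) and 4 of 31 with the 60th percentile filter (12.9%, against 17.4%). Without single arrays, which leaves fewer values to overlap, they were 12 to 24 of 78 (15.4% to 30.8%, against 19.9% to 31.9% of all). The 20 genes above background became 9 at the 99th percentile, 54 at the 40th percentile of all probe sets, and 20 to 21 without single arrays. The cause of these shifts was not tested. The replicate block gave 45 calls in all and 0 for potassium channels; deviations of same-lettered arrays correlated at -0.06, -0.41 and -0.49, and the labels give the letters no meaning. Among 440 refits of single genes named here, 412 kept their direction and side of the threshold, 7 passed, all with array weights, and 21 changed sign without passing. With 3 arrays per time, the median half-width of the 95% intervals of the 78 probe sets was 0.31 on the log2 scale.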

Other observations

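Some potassium channel probe sets varied in the same array order within the time points. Of the 78 tested, 18 (23.1%) had 46h replicate C as the lowest 46 h array and also 54h replicate B as the lowest 54 h array, against 14.0% of all probe sets tested. The opposite, both arrays highest, held for 11 (14.1%), against 28.9% of all. These orders were picked with the data known, and other combinations of arrays were not counted. Replicates B and C were each the lowest 46 h array for 31 of the 78 (39.7%). Of all probe sets the shares were 44.2% for B and 26.8% for C. The counts describe a picked order and are no result about potassium channels. Kcnj11 was one of the 18. So was Kcnn3, a small-conductance calcium-activated channel, with 261, 253 and 95.3 units at 46 h and 218, 136 and 314 at 54 h. Kcnj16, an inward rectifier, read 416, 525 and 279 units and then 422, 307 and 599 and was another, as was the Kcns3 probe set described above. Within a time point, 21 of the 78 (26.9%) spread over more than 1.5-fold, against 14.7% of all. The potassium channel probe sets were dimmer as a set: 31 of the 78 passed a filter at the 60th percentile, against 17974 of all 26961. The spread was not compared at like intensity, so the higher share is no result about potassium channels. Kcnn3 spread over 2.74-fold and its change was 0.17 ± 0.37 SE. What the order reflects was not tested.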
